A study of Drosophila melanogaster with 6 samples.

Results

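The transcripts of the mitochondrial genome of Drosophila melanogaster were followed in the Malpighian tubules, which serve the fly as kidneys, of animals with and without gut tumours. Members were the genes of the count table whose FlyBase identifier maps to a symbol beginning with mt:, which gave 37 of 17611 genes: 13 mRNAs, 2 rRNAs and 22 tRNAs. The replication origin mt:ori, which carries a symbol of the same form, was not analysed here.

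Both groups carried the driver chromosome esg-GAL4, UAS-GFP, tub-GAL80TS in 1 copy. Tumour flies had 1 copy of UAS-yki3SA in addition, and control flies did not. The yki3SA transgene encodes an active form of Yorkie, the growth-promoting coactivator of the Hippo pathway. The driver esg-GAL4 is active in intestinal progenitor cells and also in the stem cells of the tubule, so the transgene was not limited to the gut by the driver alone. Virgin flies of both genotypes spent 6 to 8 days at 18 °C, followed by 8 days at 29 °C, the temperature that releases GAL4 from GAL80TS. Poly-A RNA was sequenced from pools of 80 tubules for each genotype, in 3 libraries of each group. Whether each library was made from its own set of flies is not stated, and p-values cover only the spread between libraries, possibly of technical origin.

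The mitochondrial genome is a small circle that encodes core subunits of the respiratory chain, together with the rRNAs and tRNAs needed to translate them. Its genes are transcribed from both strands as long precursors, and the tRNAs that lie between the other genes are cut out to release the mRNAs and rRNAs, which then receive short poly-A tails. In the tubule, principal cells are rich in mitochondria, whose ATP drives the proton pump behind urine secretion.

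Library totals lay between 34640437 and 49338340 counts in tumour libraries and between 36088638 and 45728599 counts in control libraries. Levels are given as CPM, counts scaled to library size, after adjustment by the trimmed mean of M values (TMM), with factors of 1.06 to 1.18 in tumour and 0.863 to 0.943 in control libraries, and are compared between genes only as CPM per kilobase of annotated gene. Tubule markers were present in every library. Uro, the urate oxidase of the principal cell, averaged 1276 ± 374 CPM in tumour and 1771 ± 203 CPM in control libraries (SD, n = 3 each). Summed CPM of 7 principal cell markers lay between 8762 and 10525 in tumour and between 13950.5 and 16853 in control libraries, without overlap. Of these 3 were called lower by edgeR (adjusted p under 0.05), with a median of -0.47 on the log2 scale. Over all genes tested 13% were called lower. For 6 stellate cell markers the sums lay between 954 and 1092 in tumour and between 1241 and 1429 in control libraries, also apart, with 2 called lower. Endogenous yki and the transgene share sequence, and yki stood at 84.3, 90.8 and 76.9 CPM in tumour libraries, against 79.6, 63.5 and 79.4 CPM in control libraries, a difference that did not pass the test (adjusted p = 0.331). With library totals alone as the scaling, yki passed at 0.47 on the log2 scale (adjusted p = 0.0146), where 31.5% of all genes were called higher. Markers of other tissues differed between the groups. Called lower in tumour were 4 of 6 tested fat body genes, 12 of 14 midgut genes and 9 of 12 germline and eggshell genes, beside the same 13%. Summed CPM of 7 fat body genes lay between 181 and 358 in tumour and between 2439 and 5791 in control libraries, of 14 midgut genes between 16.4 and 108 in tumour and between 285 and 813 in control libraries, and of 12 germline and eggshell genes between 4.44 and 18.3 in tumour and between 120.4 and 278 in control libraries. No member of these lists was at 0 in all 6 libraries, and 2 fat body, 5 midgut and 5 eggshell markers, among them Lsp2, mag and Cp36, were at 0 in at least 1 library.

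Most mitochondrial mRNAs were lower in the tubules of tumour flies. Of the 13 mRNAs, 9 fell, with log2 fold changes of -1.64 to -0.93 and a median of -1.13, and 0 were called higher by edgeR, at an unadjusted p under 0.05 as well, and by DESeq2 or limma-voom. The other 4, mt:ND2, mt:ATPase8, mt:ND4L and mt:ND6, did not pass the test and together held 0.172% to 0.538% of the mitochondrial mRNA counts of a library. Over all 9789 genes tested, 13% were called lower and 14.8% higher in tumour. The median log2 fold change was -1.11 over the 13 mRNAs and 0.08 over all genes. A call means an adjusted p under 0.05 in the quasi-likelihood test of edgeR, adjusted by the Benjamini-Hochberg method across the whole table. In bulk RNA, fewer cells of a type, fewer mitochondria per cell and less RNA per mitochondrion cannot be told apart.

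**Figure D1:**
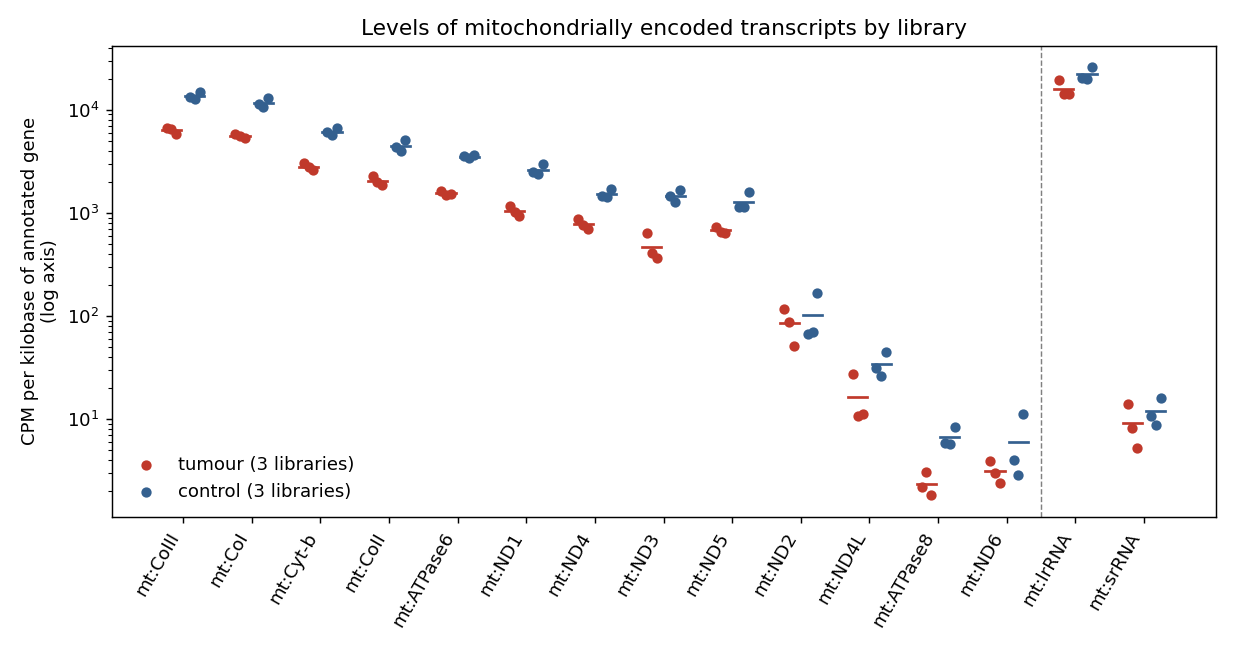
Level of each mitochondrial mRNA and rRNA in CPM per kilobase of annotated gene on a logarithmic axis, with 1 point per library and a line at the mean, tumour left of control. For the 3 cytochrome oxidase mRNAs all tumour points sit below all control points, while the points of mt:ND2 and mt:ND6 overlap between the groups.

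mt:CoI, mt:CoII and mt:CoIII encode the catalytic core of cytochrome c oxidase, complex IV, which hands electrons to oxygen. Positions are those of the mitochondrial genome in the Ensembl BDGP6 annotation. mt:CoI (FBgn0013674, 1474 to 3009, plus strand, 1536 bases) stood at 9019, 8569 and 8253 CPM in tumour libraries, against 17292, 16466 and 20084 CPM in control libraries. The highest tumour library was thus well below the lowest control library, and the log2 fold change was -1.06 ± 0.12 (SE, adjusted p = 0.000777). mt:CoII (FBgn0013675, 3083 to 3767, plus strand) had 1554, 1363 and 1290.1 CPM in tumour libraries, against 2999, 2757 and 3450.5 CPM in control libraries, and fell by 1.13 ± 0.14 on the log2 scale (adjusted p = 0.000968). mt:CoIII (FBgn0013676, 4736 to 5524, plus strand) had 5197, 5182 and 4628 CPM in tumour libraries, against 10543, 10133 and 11735 CPM in control libraries, and fell by 1.11 ± 0.12 (adjusted p = 0.00057). The groups did not overlap for any of the 3, and their fold changes lay within 1 SE of one another.

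mt:Cyt-b (FBgn0013678, 10499 to 11635, plus strand) encodes cytochrome b, the only mitochondrially encoded subunit of complex III. It had 3458, 3138 and 2945 CPM in tumour libraries, against 6897, 6413 and 7594 CPM in control libraries. Every tumour library lay below every control library, with a log2 fold change of -1.13 ± 0.13 (adjusted p = 0.000635).

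mt:ATPase6 and mt:ATPase8 encode subunits of the membrane part of ATP synthase. mt:ATPase6 (FBgn0013672, 4062 to 4736, plus strand) had 1101, 1009 and 1022 CPM in tumour libraries, against 2390, 2296 and 2444 CPM in control libraries. Its tumour levels sat closely together and far below the controls, and it fell by 1.19 ± 0.11 on the log2 scale (adjusted p = 0.000318), the smallest adjusted p of the 15 members tested. mt:ATPase8 (FBgn0013673, 3907 to 4068, plus strand, 162 bases) had 13, 22 and 17 counts in tumour libraries, against 37, 34 and 45 counts in control libraries. Its groups did not overlap either, but at this depth the log2 fold change of -1.49 ± 0.50 missed the threshold (adjusted p = 0.0578, between 0.0398 and 0.249 over the alternatives, and past the threshold with DESeq2 alone). The open reading frames of the pair overlap, sharing 7 bases of annotated sequence. Counts per kilobase of mt:ATPase6 were 486 to 837 times those of mt:ATPase8 in tumour libraries and 429 to 612 times in control libraries. The pair is known to share an mRNA, and reads that span both may count for neither, so these ratios need not reflect RNA levels.

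The 7 ND genes encode the membrane core of NADH dehydrogenase, complex I, where electrons from NADH enter the chain. Of these, 4 fell: mt:ND1, mt:ND3, mt:ND4 and mt:ND5. mt:ND1 (FBgn0013679, 11721 to 12659, minus strand) had 1106, 951 and 867 CPM in tumour libraries, against 2318, 2239.8 and 2817 CPM in control libraries, with a log2 fold change of -1.33 ± 0.15 (adjusted p = 0.000657). mt:ND3 (FBgn0013681, 5608 to 5961, plus strand, 354 bases) had 225, 146 and 129 CPM in tumour libraries, against 512, 452 and 592 CPM in control libraries. At -1.64 ± 0.22 (adjusted p = 0.00173) its log2 fold change was the most negative of the 13 mRNAs.

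mt:ND4 (FBgn0262952, 8207 to 9545, minus strand) had 1162, 1009 and 936 CPM in tumour libraries, against 1962, 1892 and 2288 CPM in control libraries, and fell by 0.98 ± 0.14 on the log2 scale (adjusted p = 0.00181). mt:ND5 (FBgn0013684, 6409 to 8125, minus strand) had 1256, 1124 and 1097 CPM in tumour libraries, against 1941, 1964 and 2714 CPM in control libraries, and fell by 0.93 ± 0.16 (adjusted p = 0.00486). Neither gene overlapped between the groups, and mt:ND5 had the mildest fall of the 9 that passed. It was also the only one of them to lose its call in a test against a fold of 1.5 (adjusted p = 0.0846).

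The remaining complex I genes received fewer counts than those called lower. mt:ND4L is known to share an mRNA with mt:ND4, so its low counts need not reflect the level of its RNA. mt:ND2 (FBgn0013680, 240 to 1263, plus strand) had 119.9, 90.1 and 51.9 CPM in tumour libraries, against 68.8, 71.9 and 169.6 CPM in control libraries. The groups overlapped, with control replicate 3 above all others, and the log2 fold change of -0.25 ± 0.46 did not pass (adjusted p = 0.73). It changed sign when control replicate 3 was left out (0.31), when tumour replicate 3 was left out (0.013) and with library totals alone as the scaling (0.018). mt:ND4L (FBgn0013683, 9545 to 9835, minus strand), which shares 1 base with mt:ND4, had 7.97, 3.08 and 3.26 CPM in tumour libraries, against 9.04, 7.63 and 12.8 CPM in control libraries. Tumour replicate 1 lay among the controls, and the log2 fold change of -1.05 ± 0.41 did not pass (adjusted p = 0.0925), though it did with DESeq2, with limma-voom and without tumour replicate 1, alone or together with control replicate 3 (adjusted p from 0.0129 to 0.378 over the alternatives). mt:ND6 (FBgn0013685, 9971 to 10495, plus strand) had 2.07, 1.56 and 1.26 CPM in tumour libraries, against 2.08, 1.51 and 5.89 CPM in control libraries. Only control replicate 3 stood apart there, and the log2 fold change was -0.95 ± 0.54 (adjusted p = 0.228).

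**Figure D2:**
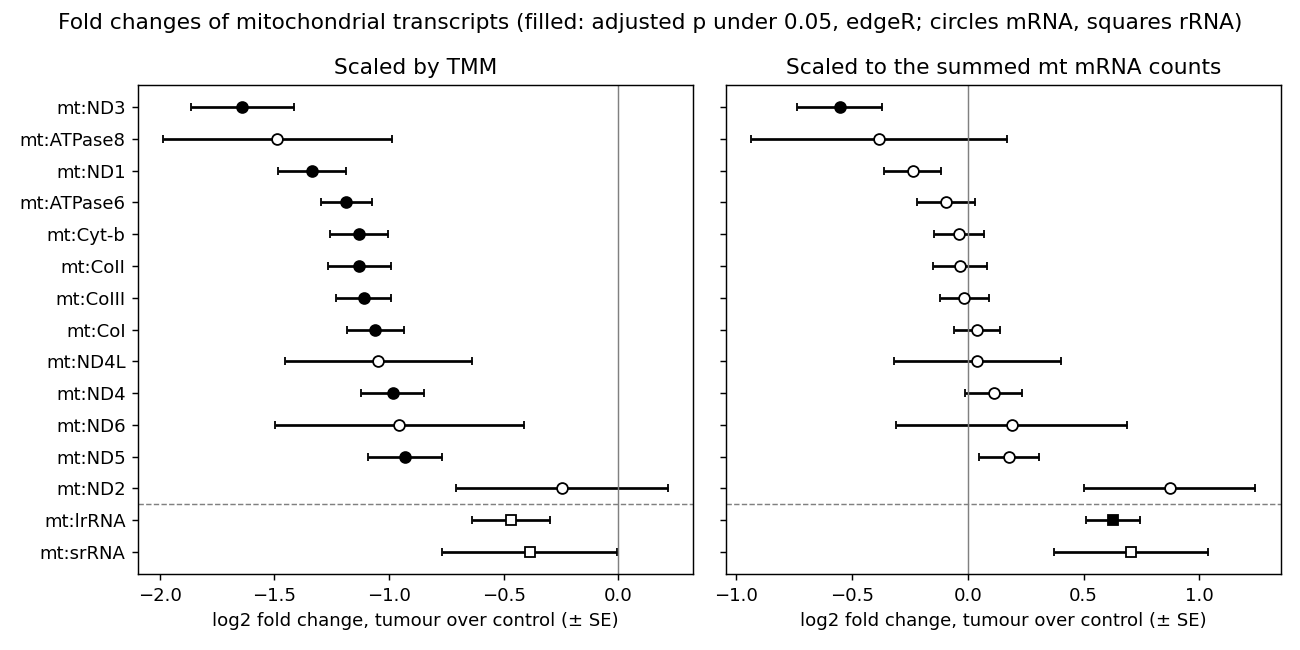
Log2 fold change, tumour over control, of the 13 mRNAs and 2 rRNAs, with bars of 1 SE and filled symbols for calls, scaled by TMM on the left and to the summed mitochondrial mRNA counts on the right. On the left the 9 mRNAs called lower lie between -1.64 and -0.93, and on the right only mt:ND3 (-0.55) and mt:lrRNA (0.63) are filled.

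Tumour and control libraries did not overlap for 10 of the 13 mRNAs, all lower in tumour, where 20.1% of all tested genes were lower without overlap. All 9 calls held when any 1 library was left out, and also with library totals alone as the scaling, which called 8.48% of all genes lower. That scaling moved the median log2 fold change of all genes by 0.29, to 0.37, and the median over the 13 mRNAs to -0.83. Tumour replicate 1 had the highest tumour CPM for 14 of the 15 tested members and control replicate 3 the highest control CPM for 15 of 15. With both of these left out, 10 mRNAs were called lower, against 7.12% of all genes tested in that fit. The part in these results of the lower principal cell, stellate cell, fat body, midgut and eggshell markers was not tested. Summed muscle markers, from another tissue rich in mitochondria, overlapped between the groups at 574 to 753 CPM in tumour and 674 to 769 CPM in control libraries. Of 15 tested, 2 were called lower, a share near the 13% of all genes, with a median of -0.28 on the log2 scale. Of these markers TpnC41C was at 0 in 3 of 6 libraries.

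As a share of all counts, the 13 mRNAs made up 2.57%, 2.44% and 2.50% of tumour libraries, against 4.05%, 4.21% and 4.92% of control libraries. Each tumour share was below each control share, and summed over genes the mRNAs averaged 22672 ± 1494 CPM in tumour and 48512 ± 4805 CPM in control libraries (SD, n = 3 each), a log2 ratio of -1.10. Grouped by the complex their proteins join, the log2 ratio of summed CPM was -1.10 for complex I, -1.13 for complex III, -1.08 for complex IV and -1.19 for ATP synthase. No test was made of the sums, whose log2 ratios lay between -1.19 and -1.08. Grouped by coding strand, the log2 ratio was -1.10 for the 9 genes of the plus strand and -1.08 for the 4 of the minus strand. Minus-strand mRNAs held 0.158 to 0.171 counts for each plus-strand count in tumour libraries and 0.153 to 0.170 in control libraries, ranges that overlap.

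Levels per kilobase spanned a wide range within the mRNAs. mt:CoIII was highest, at 6340.4 ± 411 CPM per kilobase in tumour and 13693 ± 1055 in control libraries, followed by mt:CoI at 5608 ± 251 in tumour and 11685 ± 1234 in control libraries. The SDs of the pair meet in control and lie close together in tumour libraries, but within each library mt:CoI lay below mt:CoIII, at 0.849 to 0.916 of its level in tumour and 0.835 to 0.879 in control libraries. mt:Cyt-b followed with a mean of 2797 CPM per kilobase in tumour and 6128 in control libraries, mt:CoII with 2047 in tumour and 4480 in control libraries, and mt:ATPase6 with 1547 in tumour and 3521 in control libraries. At the low end stood mt:ATPase8, with a mean of 2.36 CPM per kilobase in tumour and 6.63 in control libraries, and mt:ND6, with 3.11 in tumour and 6.02 in control libraries, and the ranges of these 2 genes overlap in both groups. For mt:ATPase8 such a value need not reflect the level of its mRNA, which it is known to share with mt:ATPase6. Complex IV mRNAs took 65.1% to 66.9% of the mitochondrial mRNA counts in tumour and 65.4% to 65.7% in control libraries.

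Some neighbours on the same strand stood far apart in level, while mt:ND4 and mt:ND5 lay close together, with means of 773 and 675 CPM per kilobase in tumour and 1529 and 1285 in control libraries. Per kilobase, mt:ND4 exceeded mt:ND4L, which lies next to it, by 31.7 to 71.1 times in tumour and 38.7 to 53.9 times in control libraries. mt:Cyt-b exceeded mt:ND6 by 772 to 1081 times in tumour and 595 to 1955 times in control libraries. The tumour and control ranges of both ratios overlap. Counts of reads over shared or neighbouring sequence depend on how the authors assigned them, and the table shows a trace of that rule. Of 136 genes whose exons lie wholly within exons of genes on the opposite strand, 135 had 0 counts in every library (99.3%), against 21.2% of the 11769 genes that share no exon base. Reads over sequence annotated to more than 1 gene were thus largely absent from the table, whichever the strand. mt:ATPase8 and mt:ATPase6, and likewise mt:ND4L and mt:ND4, are known to share an mRNA, so reads that span such a pair may count for neither and the levels of the short members are uncertain. Among the mRNAs the shared stretches are short, 8 bases of mt:ATPase6 and 7 of mt:ATPase8, and mt:ND6 shares none with its neighbours. It ends at 10495, however, and mt:Cyt-b begins at 10499 on the same strand, so reads that span both may likewise count for neither.

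To ask which members departed from the common fall, the test was repeated with each library scaled by its summed counts over the 13 mRNAs. That scale places most nuclear genes higher in tumour, with 70.3% of all tested genes called higher and 3.28% lower, so the members were read against one another. The pool contains the members themselves, and mt:CoI and mt:CoIII make up most of it. With 73.6% of all genes called on this scale, adjustment over all genes raises p little, and none was made over the members alone. Of the 13 mRNAs only mt:ND3 passed in this fit (edgeR, unadjusted p = 0.0126). It held 0.929%, 0.645% and 0.607% of the mRNA counts in tumour libraries, against 1.09%, 1.01% and 1.10% in control libraries, a log2 fold change of -0.55 ± 0.18 (adjusted p = 0.0187). Its groups did not overlap, but the call was lost without tumour replicate 2 (adjusted p = 0.0723), tumour replicate 3 (0.0923) or control replicate 3 (0.0503). mt:ND1 held 4.57%, 4.21% and 4.08% of the mRNA counts in tumour libraries, against 4.94%, 5.01% and 5.22% in control libraries. These groups did not overlap either, and the log2 fold change of -0.24 ± 0.12 did not pass (adjusted p = 0.104). The shares of mt:ND4 and, by a narrow margin, mt:CoI were higher in tumour without overlap. Neither passed (adjusted p = 0.422 for mt:ND4 and 0.724 for mt:CoI). The share of all genes without overlap on this scale is not given here.

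mt:ND2 leaned the other way on this scale, at 0.87 ± 0.37 log2 (adjusted p = 0.0668). Per kilobase, mt:CoI stood 50.1, 63.4 and 106 times above mt:ND2 in tumour libraries, against 168, 153 and 78.9 times in control libraries. The ranges overlap through tumour replicate 3 and control replicate 3. The difference passed without tumour replicate 3 (adjusted p = 0.0148, with 66.8% of all genes called higher) and without control replicate 3 (0.00744, with 64.9%). Without any other single library mt:ND2 did not pass (adjusted p from 0.140 to 0.210). Over the 6 fits that each left out 1 library its log2 fold change lay between 0.63 and 1.30.

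mt:lrRNA and mt:srRNA are the RNAs of the large and small subunits of the mitochondrial ribosome. Neither was called lower or higher in tumour by edgeR, and 1, mt:lrRNA, was lower at an unadjusted p under 0.05 and by DESeq2, with 0 by limma-voom. mt:lrRNA (FBgn0013686, 12735 to 14058, minus strand, 1324 bases) had 25562, 18639.9 and 18936 CPM in tumour libraries, against 27012, 26215 and 34179 CPM in control libraries. The groups did not overlap, tumour replicate 1 coming close to the controls, and the log2 fold change was -0.47 ± 0.17 (adjusted p = 0.0734). Here the call depended on the setting. It passed without tumour replicate 1 (adjusted p = 0.0287), with DESeq2 (0.0194) and with a filter of 5 CPM (0.0440), and with library totals alone the log2 fold change was -0.19 (adjusted p = 0.33), within a range of 0.0194 to 1 over the alternatives. mt:lrRNA was the most abundant member, at 15896 ± 2956 CPM per kilobase in tumour and 22006 ± 3313 in control libraries.

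mt:srRNA (FBgn0013688, 14131 to 14916, minus strand, 786 bases) had 10.9, 6.39 and 4.10 CPM in tumour libraries, against 8.41, 6.84 and 12.7 CPM in control libraries. The groups overlapped, and the log2 fold change of -0.39 ± 0.38 did not pass (adjusted p = 0.492). Per kilobase, mt:lrRNA stood 1394, 1731 and 2740 times above mt:srRNA in tumour libraries and 1907, 2274 and 1603 times in control libraries. The counts come from poly-A selected RNA, and how much of each rRNA the selection captured was not measured. The rRNAs together made up 2.71%, 2.01% and 2.23% of tumour libraries, against 2.33%, 2.47% and 3.12% of control libraries, and the groups overlapped.

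Set against the mRNA pool, mt:lrRNA was called higher in tumour, as were 70.3% of all genes on that scale. There were 1.06, 0.825 and 0.892 mt:lrRNA counts for each mitochondrial mRNA count in tumour libraries, against 0.576, 0.587 and 0.634 in control libraries (0.924 ± 0.119 in tumour and 0.599 ± 0.0311 in control, SD, n = 3 each). No tumour library came near the controls, the log2 fold change was 0.63 ± 0.12 (adjusted p = 0.000652), and all 6 fits that left out 1 library kept the call (adjusted p from 0.000281 to 0.00388). mt:ND1 lies beside mt:lrRNA on the same strand, with a tRNA gene between them. Per kilobase, mt:lrRNA stood 16.4, 13.9 and 15.5 times above mt:ND1 in tumour libraries, against 8.26, 8.30 and 8.61 times in control libraries, ranges far apart. mt:srRNA had a log2 fold change of 0.71 ± 0.33 against the pool and did not pass (adjusted p = 0.0759).

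**Figure D3:**
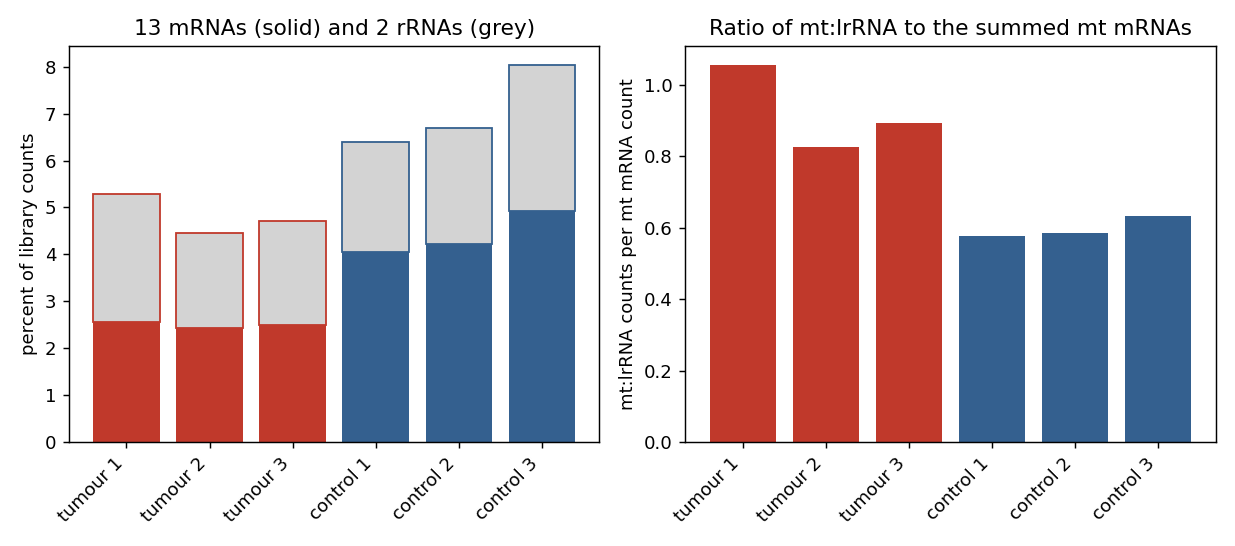
Bars, 1 per library with tumour left of control, of the percent of all counts held by mitochondrial mRNAs (solid) and rRNAs (grey, stacked) and, on the right, of the mt:lrRNA counts per mitochondrial mRNA count. The mRNA share lay between 2.44% and 2.57% in tumour and between 4.05% and 4.92% in control libraries, and the ratio between 0.825 and 1.06 in tumour and between 0.576 and 0.634 in control libraries.

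**Figure D4:**
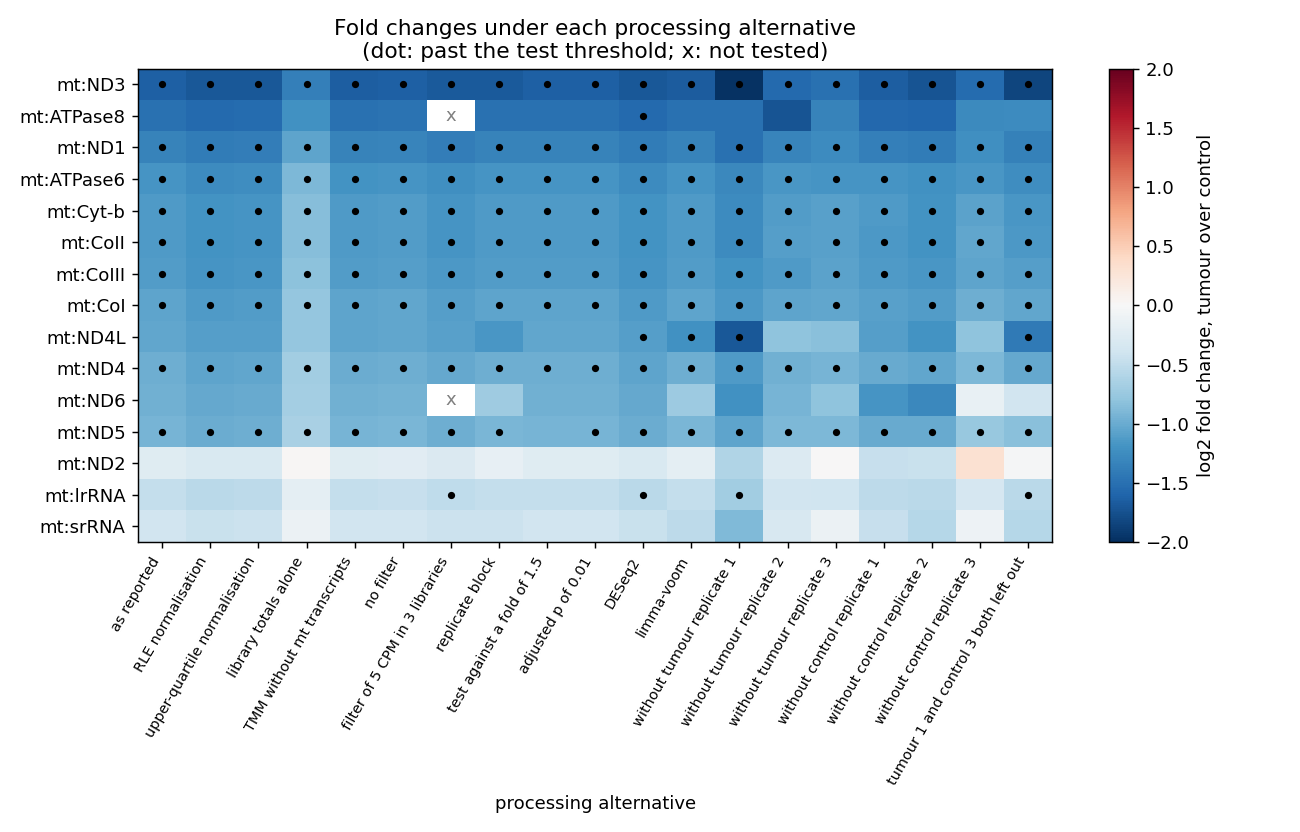
Log2 fold change, tumour over control, as a colour for each mitochondrial mRNA and rRNA (rows) under each alternative setting (columns), with a dot where the test passed and a cross where the gene was not tested. The 9 mRNAs called lower stay below 0 under all settings shown, while mt:ND2 falls on both sides of 0.

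The 22 tRNA genes carry amino acids to the mitochondrial ribosome, and their transcripts are short and were hardly counted. Of these genes 20 had 0 counts in all 6 libraries. mt:tRNA:Ala-TGC had 1 count in tumour replicate 1 and 1 in control replicate 2, and mt:tRNA:Arg-TCG had 1 count in tumour replicate 1. These 3 counts were all that the class received, and no tRNA passed the filter on low counts. With 0 counts, a level of up to 3 counts (0.0608 to 0.0866 CPM before TMM adjustment) remained possible by counting error, and other errors are not covered. Of the tRNAs 14 lie on the plus and 8 on the minus strand, and mt:tRNA:Trp-TCA and mt:tRNA:Cys-GCA share 8 bases on opposite strands. With these few counts no difference between the groups was detectable. How far poly-A selection, short length or the assignment of reads lowered the counts was not tested.

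Nuclear genes supply everything else that mitochondrial gene expression needs. Of 29 tested genes for mitochondrial DNA upkeep, transcription, RNA processing and translation, 4 were lower and 2 higher in tumour, and the median was -0.16 on the log2 scale. Over all genes tested 13% were lower and 14.8% higher, so the first count lies near the background and the second below it. Under each of 4 alternatives 8 of the 29 were lower, beside 14.3% of all genes with RLE scaling, 14.4% with upper-quartile scaling, 17.5% with a filter of 5 CPM and 17.5% with DESeq2. Genes for transcribing mitochondrial DNA and for terminating or modifying its transcripts had 0 calls among 5 tested by edgeR. They also had 0 at an unadjusted p under 0.05 and by DESeq2 or limma-voom. TFAM, which packages mitochondrial DNA, had 41.2, 37.4 and 37.4 CPM in tumour libraries, against 44.9, 41.6 and 39.1 CPM in control libraries, with a log2 fold change of -0.12 ± 0.11 (adjusted p = 0.474). PolrMT, the RNA polymerase of mitochondria, had 36.0, 43.9 and 46.0 CPM in tumour libraries, against 57.0, 47.0 and 49.7 CPM in control libraries, with -0.29 ± 0.14 (adjusted p = 0.15). With library totals alone, both changed sign (0.17 for TFAM and 0.0085 for PolrMT). mtTFB2, the factor that opens promoters for the polymerase, had 7.37, 9.14 and 8.48 CPM in tumour libraries, against 8.51, 6.68 and 7.04 CPM in control libraries, with 0.17 ± 0.19 (adjusted p = 0.554).

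Among RNA processing and stability factors, 3 of 10 tested genes fell and 1 rose, beside the same 13% and 14.8% over all genes. Suv3, a helicase of mitochondrial RNA turnover, had 23.8, 25.5 and 22.6 CPM in tumour libraries, against 44.3, 41.4 and 45.5 CPM in control libraries, with a log2 fold change of -0.87 ± 0.11 (adjusted p = 0.00117), counted over exons of which 26.5% are shared with other genes. scu, a subunit of the mitochondrial RNase P that cuts tRNA 5′ ends, had 183, 135 and 142 CPM in tumour libraries, against 323, 231 and 236 CPM in control libraries, with -0.78 ± 0.18 (adjusted p = 0.0156, and 0.0561 without tumour replicate 2). Lrpprc2, a pentatricopeptide repeat protein of mitochondria, had 53.2, 54.5 and 45.9 CPM in tumour libraries, against 101, 73.0 and 75.3 CPM in control libraries, with -0.70 ± 0.15 (adjusted p = 0.0125, and 0.0650 without tumour replicate 1 and control replicate 3). These 3 genes, all called lower, did not overlap between the groups, where 20.1% of all tested genes were lower without overlap. RNaseZ, which cuts tRNA 3′ ends in the nucleus and in mitochondria, rose, with 28.2, 27.5 and 23.1 CPM in tumour libraries, against 16.3, 16.4 and 18.0 CPM in control libraries (log2 fold change 0.63 ± 0.13, adjusted p = 0.00971, and 0.0805 without the same pair of libraries). bsf, which stabilises mitochondrial mRNAs, had 134, 165 and 144 CPM in tumour libraries, against 185, 183 and 186 CPM in control libraries, and its -0.32 ± 0.12 did not pass (adjusted p = 0.0715). It did pass with RLE scaling (adjusted p = 0.0475), upper-quartile scaling (0.0427), the 5 CPM filter (0.0391) and DESeq2 (0.0123), while with library totals alone it stood at -0.037 (0.82). SLIRP1, a partner of such proteins, had 0 counts in every library, and its exons lie wholly within those of another gene.

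Of 8 tested translation and insertion genes, 1 rose, a share near the 14.8% of all genes called higher. mRF1, the mitochondrial release factor that ends translation, had 20.3, 20.5 and 26.1 CPM in tumour libraries, against 11.6, 12.6 and 11.5 CPM in control libraries, with a log2 fold change of 0.91 ± 0.15 (adjusted p = 0.00387). Every tumour library exceeded every control library. Of 6 tested genes for the upkeep of mitochondrial DNA, 1 fell, a share near the 13% of all genes called lower. This was the DNA ligase DNAlig3, with 33.4, 23.0 and 23.4 CPM in tumour libraries, against 45.3, 44.8 and 41.7 CPM in control libraries (-0.72 ± 0.16, adjusted p = 0.0141, and 0.0539 with library totals alone).

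The nuclear subunits of the respiratory chain moved in the same direction as the mitochondrial ones. Of 66 tested nuclear subunits, 49 fell and 0 rose by edgeR, beside 13% and 14.8% of all genes. Their median log2 fold change was -0.54, with a range of -1.22 to 0.15. By limma-voom 49 fell, where 13.2% of all genes were called lower, and by DESeq2 55 fell, where 17.5% were. At an unadjusted p under 0.05 in edgeR 55 fell, and the share of all genes at that cut is not given here. In each of these 0 were higher. By complex, 18 of 32 nuclear subunits of complex I fell with a median of -0.42, beside 4 of 7 mitochondrial mRNAs with a median of -0.98. For complex III, 5 of 8 nuclear subunits fell with a median of -0.51, and the 1 mitochondrial mRNA stood at -1.13. For complex IV, all 9 nuclear subunits fell with a median of -0.59, beside all 3 mitochondrial mRNAs with a median of -1.11. For ATP synthase, all 13 nuclear subunits fell with a median of -0.66, beside 1 of 2 mitochondrial mRNAs with a median of -1.34. All 4 nuclear subunits of complex II, which has no mitochondrially encoded member, fell with a median of -0.54. The mitochondrial median was the lower one in each of the 4 complexes that have both kinds, and that difference was not tested. SdhA, the flavoprotein of complex II, had 366, 379 and 329.7 CPM in tumour libraries, against 880.1, 806 and 817 CPM in control libraries, and its log2 fold change of -1.22 ± 0.12 (adjusted p = 0.000362) was within the range of the mitochondrial mRNAs. ATPsynC, which forms the rotor ring of ATP synthase, fell by 1.03 ± 0.13 (adjusted p = 0.00129) and COX6B, a small subunit of complex IV, by 0.94 ± 0.14 (adjusted p = 0.00227). Calls that held in every fit without 1 library numbered 9 in complex I, 1 in complex II, 3 in complex III, 5 in complex IV and 10 in ATP synthase. The share of all genes whose calls held in every such fit is not given here. The count of 49 depended on single libraries. It was 28 without tumour replicate 2 (9.7% of all genes lower), 29 without tumour replicate 3 (10.2%) and 29 without control replicate 1 (9.06%). With library totals alone it was 27, where 8.48% of all genes were called lower. It was 22 at a threshold of 0.01, where 6.12% of all genes were called lower. In the test against a fold of 1.5 it was 3 of 66, a share no higher than the 4.9% of all genes called lower there.

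**Figure D5:**
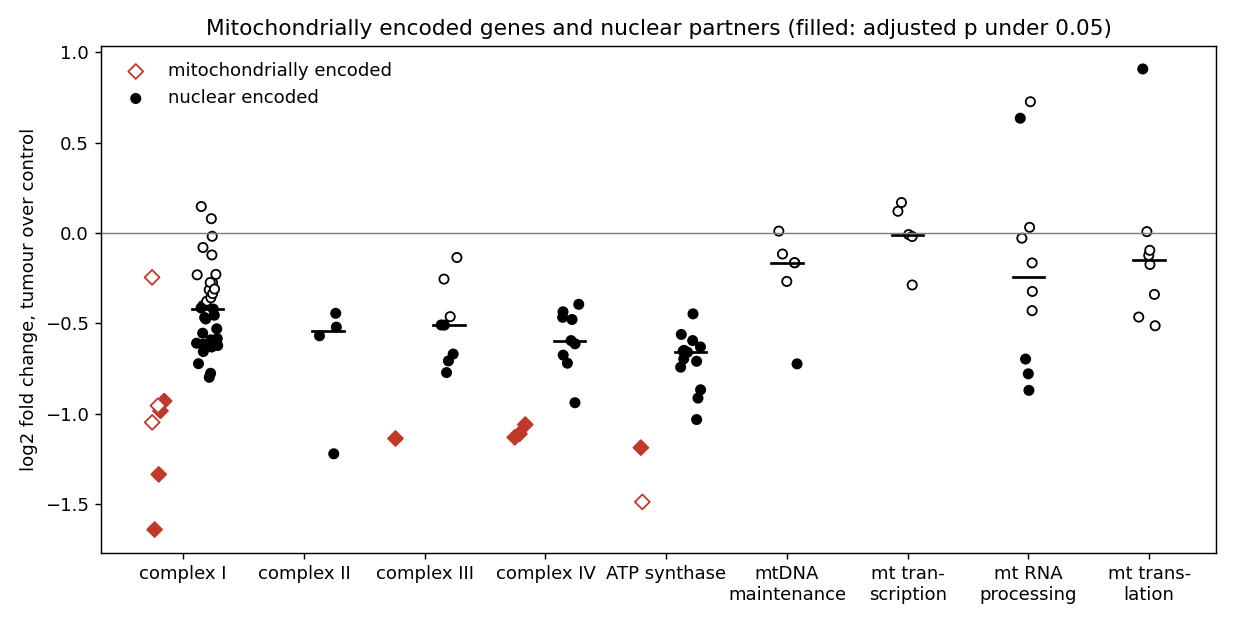
Log2 fold change, tumour over control, of mitochondrially encoded subunits (diamonds) and nuclear genes (circles, with a line at the median) by respiratory complex and for 4 groups of expression factors, filled where the gene passed. In complexes I, III, IV and ATP synthase most mitochondrial points lie near -1, below the nuclear medians of -0.42 to -0.66, and complex II has nuclear points only.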

How the data were processed

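Gene-level read counts, not normalised, were deposited by the authors as a single table. TopHat, Cufflinks and HTSeq are named, without version or role, per the submitters' processing notes. The build, annotation and strand setting behind the counts were not given in the sources used here. Coordinates, strand and gene length came from the Ensembl BDGP6 annotation by FlyBase identifier and need not match the build of the counts. No symbol was found for 59 of 17611 identifiers.

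Genes were filtered with filterByExpr (minimum count 10, minimum total 15), which kept 9789, all 13 mRNAs and 2 rRNAs among them and none of the 22 tRNAs. Tumour was compared with control by the two-sided robust quasi-likelihood test of edgeR 4.0.16 (R 4.3.3, TMM scaling, Benjamini-Hochberg adjustment over all genes tested). The SE was taken as the size of the log2 fold change over the root of F, and the biological variation coefficient came to 30.8%. A further fit used the summed counts of the 13 mRNAs as library size. DESeq2 1.42.0 and limma 3.58.1 served as alternatives, beside other scalings, filters, thresholds and left-out libraries. Tables and figures used Python 3.11.15, pandas 2.3.3 and matplotlib 3.10.9. The code was tested on simulated data.

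The members and the nuclear and marker lists were chosen with earlier results of these data known. Every member is given, and from some of the nuclear lists genes among the 4 with the smallest adjusted p, picked for display after their values were seen, with TFAM, PolrMT, mtTFB2, bsf, SLIRP1 and yki whatever their result. The marker genes named were likewise picked after their values were seen. Leaving out tumour replicate 1 and control replicate 3 together was added after the data were seen.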

Additional observations from a re-analysis of the deposited data

How the results depend on the processing

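The count of mitochondrial mRNAs called lower, 9, ranged from 8 (a fold of 1.5, 4.9% of all genes) to 11 (DESeq2, 17.5%) over the alternatives. Without 1 library it was 9 to 10, beside 8.75% to 11.3% of all genes. The count of rRNAs called lower was 0, and 1 with the 5 CPM filter (17.5% of all genes) or DESeq2 (17.5%). It was also 1 with tumour replicate 1 and control replicate 3 both left out (7.12%), and 0 to 1 without 1 library. Against the mRNA pool, 1 member was higher, beside 70.3% of all genes, and 2 with the replicate block (70.7%), under which mt:ND2 had an adjusted p of 0.000442. With both libraries left out 2 were higher (63.1%). Without 1 library 1 to 3 were higher, beside 64.9% to 69.3% of all genes, and 0 to 1 lower, beside 2.63% to 3.63%. Under the block 9 mRNAs were called lower with TMM scaling, beside 12.2% of all genes. Libraries of equal number did not deviate together (r = 0.0824, -0.0833 and 0.0580 across genes, for numbers 1, 2 and 3), so the numbers are not taken as pairs. The mRNA share, tumour minus control, was -1.89 percentage points, -2.33 without the 20 most abundant other genes and -2.58 with TMM-scaled totals (-2.07 to -1.63 without 1 library). The rRNA share differed by -0.324 points, and by -0.809 with TMM-scaled totals (-0.522 to -0.0850 without 1 library).

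Of 29 tested nuclear expression factors, 4 were lower and 2 higher, beside 13% and 14.8% of all genes. Lower were 8 with RLE (14.3% of all genes), upper-quartile (14.4%), the 5 CPM filter (17.5%) or DESeq2 (17.5%). With a fold of 1.5 (4.9%) or a threshold of 0.01 (6.12%) 1 was lower. Without 1 library 3 to 5 were lower, beside 8.75% to 11.3% of all genes. Higher were 0 with a fold of 1.5 (3.43% of all genes) and 1 with both libraries left out (4.58%). Of 66 tested nuclear respiratory subunits 49 were lower, beside 13% of all genes. With library totals alone 27 were lower and 1 higher, beside 8.48% and 31.5% of all genes. Lower were 3 with a fold of 1.5 (4.9% of all genes) and 22 with a threshold of 0.01 (6.12%). Without 1 library 28 to 54 were lower, beside the same 8.75% to 11.3%.

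Signs changed for members near 0. mt:ND2 turned to 0.018 with library totals alone, 0.013 without tumour replicate 3 and 0.31 without control replicate 3 (-0.60 to 0.31 without 1 library). Against the pool, mt:CoIII turned to 0.0096 with mt:CoI out of the pool and to 0.0048 without tumour replicate 1 (-0.043 to 0.0048). mt:ND4L turned to -0.063 under the block and without control replicate 2, to -0.47 without tumour replicate 1 and to -0.32 with both libraries left out, and mt:ND6 to -0.0072 without control replicate 1 and -0.11 without control replicate 2 (-0.11 to 0.87). With library totals alone, EndoG turned to 0.012, Lon to 0.13, TFAM to 0.17, PolrMT to 0.0085, mTerf3 to 0.27 and Vha68-2 to 0.10. mTerf5 turned to -0.0048 without tumour replicate 3 (-0.0048 to 0.16), mTerf3 to 0.060 without tumour replicate 2 and 0.092 without control replicate 1 (-0.14 to 0.092), and sls to -0.050 without tumour replicate 1 and -0.081 without control replicate 2. The causes were not tested. With the 5 CPM filter mt:ATPase8 and mt:ND6 were not tested. With 3 libraries a group and at most 45 counts, changes of mt:ATPase8 are poorly resolved, and tRNA changes not at all.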
